A study of Rattus norvegicus with 40 samples.

Results

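The messenger RNA of 6 enzymes that supply NADPH and carry sugars through the pentose phosphate pathway was followed in rat liver during treatment with DEN (diethylnitrosamine, a carcinogen that hepatocytes activate) and in the nodules that developed. The 6 genes, Pgd, Taldo1, Tkt, Me1, Pgls and Rpia, were found by symbol among the 17337 genes of the count tables, and each of the 6 passed the filter on low counts in every comparison. Fischer 344 male rats, an inbred strain, were injected intraperitoneally each week with 50 mg/kg DEN from 7 weeks of age. Non-tumoral (NT) liver was taken after 8 weeks of DEN, after 14 weeks of DEN, and at 20 weeks, when the rats had received DEN for 14 weeks and then none for 6 weeks. From each rat of the 14-week and 20-week groups 2 tumor nodules were sequenced as well. Untreated rats of the same age (no DEN) gave the control liver at 8, 14 and 20 weeks. Each group held 4 rats, which makes 24 rats and 40 libraries, and counts of both nodules of a rat were summed, which gave 1 value per rat and tissue.

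In the cell, the oxidative branch of the pentose phosphate pathway turns glucose phosphate into a pentose phosphate and reduces NADP to NADPH on the way. The non-oxidative branch exchanges carbon units between sugar phosphates, so that pentoses can be made for nucleotides or returned to glycolysis. NADPH pays for fatty acid synthesis and for the reduction of glutathione and thioredoxin, and in liver it is also used by enzymes that detoxify foreign compounds. Pgls encodes the lactonase of the oxidative branch and Pgd the dehydrogenase that follows it and yields NADPH. Rpia encodes the isomerase that makes ribose phosphate, Tkt transketolase and Taldo1 transaldolase, the pair of enzymes that moves carbon units in the non-oxidative branch. Me1 encodes the cytosolic malic enzyme, which makes NADPH outside the pathway and is best known from the lipogenic liver.

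Levels are given as CPM, read counts relative to the size of the library, after scaling by trimmed means (TMM), and since CPM does not take transcript length into account, no level was compared between genes. A gene was called changed when the quasi-likelihood test of edgeR put its adjusted p, taken over all genes tested, at or under 0.05 and its log2 fold change was 0.5 or more either way. Between 20528515 and 160622633 read pairs were counted per library (median 30477421). The largest library, NT liver of rat H26 at 20 weeks, was 4.08-fold deeper than the one below it. Rats are numbered with an F (F09 and F10 at 8 weeks, F06 at 14 weeks, F03 at 20 weeks) or an H, and all no DEN rats carry an H. Hepatocyte markers (6 of 6 detected) summed to 216831 to 259512 CPM in no DEN liver, 137077 to 235437 in NT liver and 109491 to 173469 in nodules. Not all of them fell. Of the 6, 1 was called higher and 4 lower in nodules than in no DEN liver at 14 weeks. There 23.9% of all genes were called higher and 15.2% lower. Since whole tissue was sequenced, fewer cells of a type and less RNA per cell cannot be told apart.

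The plot of levels by rat gives every value behind the comparisons. In the 12 no DEN rats the levels of Taldo1 and Tkt were narrow, from 125 to 147 CPM for Taldo1 (median 138) and from 282 to 359.9 CPM for Tkt (median 323). Pgd ranged from 182 to 273 CPM (median 211) and Me1 from 172 to 344 CPM (median 283). Pgls lay between 50.2 and 69.6 CPM (median 56.7) and Rpia between 7.56 and 12.3 CPM (median 10.4).

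**Figure D1:**
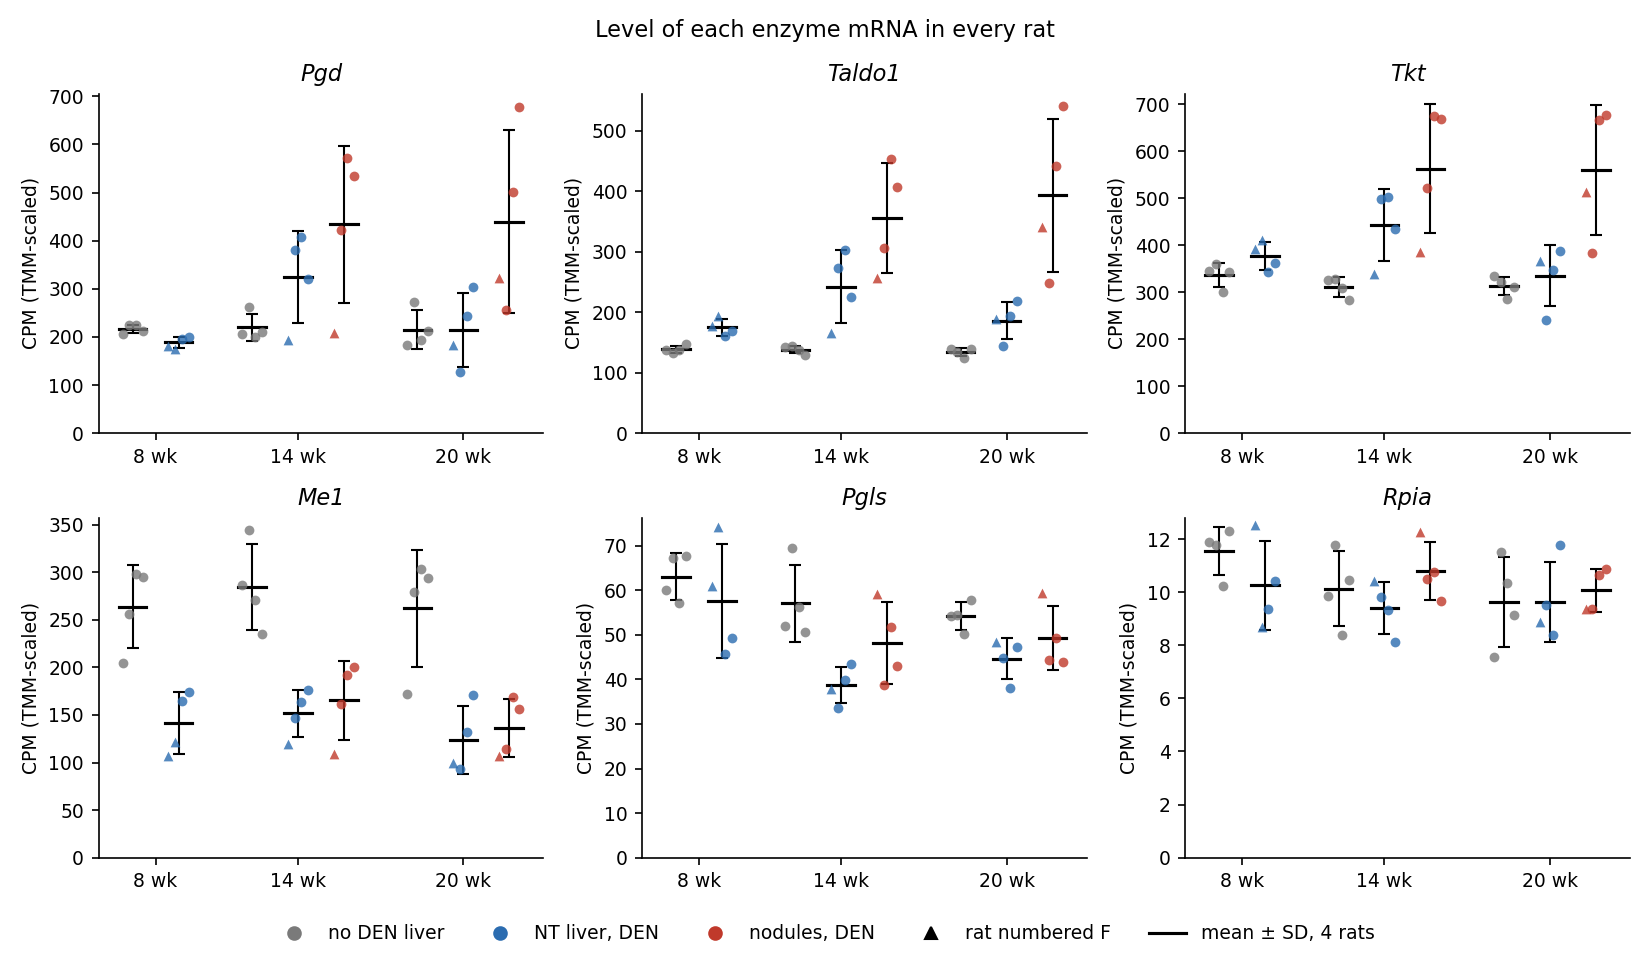
Level of each enzyme mRNA in CPM (TMM-scaled, linear axis from 0) in each rat at 8, 14 and 20 weeks, for no DEN liver (grey), NT liver of DEN-treated rats (blue) and nodules (red, 2 nodules of a rat added); triangles are rats numbered F, and black lines give the mean ± SD of 4 rats. Pgd, Taldo1 and Tkt were highest in nodules, where Taldo1 reached 541 CPM against at most 147 CPM in no DEN liver. Me1 stood lower in every DEN-treated group, and the groups of Rpia overlapped.

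The 250 bases that precede the start of Pgd, Taldo1 and Tkt, which were called higher in nodules than in no DEN liver, and of Me1, which was called lower there, are shown because the levels below turn on these 4 genes. They are RefSeq sequences of the GRCr8 assembly, which is not the rn6 build of the counts, and 5 of the 6 genes had an entry. Capitals mark TGACNNNGC (the core of the antioxidant response element), GGGCGG (the GC box) and CCAAT (the CCAAT box), each searched on both strands, and no 2 of the marked matches overlap.
Pgd (chr5:164882030-164882279, minus strand): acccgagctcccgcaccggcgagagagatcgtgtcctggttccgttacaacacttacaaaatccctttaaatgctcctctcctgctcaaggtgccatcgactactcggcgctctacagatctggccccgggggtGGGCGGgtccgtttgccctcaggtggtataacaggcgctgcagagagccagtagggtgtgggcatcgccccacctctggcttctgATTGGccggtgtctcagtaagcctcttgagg
Taldo1 (chr1:205922946-205923195, plus strand): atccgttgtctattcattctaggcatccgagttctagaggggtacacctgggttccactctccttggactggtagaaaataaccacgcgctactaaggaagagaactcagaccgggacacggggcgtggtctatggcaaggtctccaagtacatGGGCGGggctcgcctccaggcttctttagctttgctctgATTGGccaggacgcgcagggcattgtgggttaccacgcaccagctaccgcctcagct
Tkt (chr16:5729982-5730231, plus strand): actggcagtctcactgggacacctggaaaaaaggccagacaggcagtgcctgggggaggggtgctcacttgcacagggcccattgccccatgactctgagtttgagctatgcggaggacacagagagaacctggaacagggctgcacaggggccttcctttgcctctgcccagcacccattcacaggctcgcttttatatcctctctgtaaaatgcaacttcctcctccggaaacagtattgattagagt
Me1 (chr8:96540245-96540494, minus strand): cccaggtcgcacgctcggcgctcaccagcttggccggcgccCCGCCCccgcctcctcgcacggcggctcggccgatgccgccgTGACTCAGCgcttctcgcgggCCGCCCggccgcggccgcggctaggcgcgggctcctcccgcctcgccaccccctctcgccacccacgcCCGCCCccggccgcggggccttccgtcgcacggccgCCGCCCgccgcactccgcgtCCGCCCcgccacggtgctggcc
The upstream stretches of Pgd and Taldo1 each held 1 GC box and, nearer to the start, 1 CCAAT box read on the other strand (ATTGG). In Pgd these lay from 116 to 111 and from 31 to 27 bases before the start, and in Taldo1 from 96 to 91 and from 57 to 53 bases. Tkt held none of the 3 motifs. Me1 held 5 GC boxes and, from 167 to 159 bases before the start, the sequence TGACTCAGC, which matches TGACNNNGC. Of 33469 rat promoters of this length, 10.1% held TGACNNNGC, 30.5% GGGCGG and 34.0% CCAAT. The letters CACGTG (the E-box, searched on both strands) were in 5.59% of all promoters and in none of these 4. A match says only that the letters are in this window.

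At 8 weeks of DEN, before nodules were sampled, Me1 was the only member called in NT liver, at 0.535 times its no DEN level. In the no DEN rats Me1 stood at 205 (H05), 257 (H06), 298 (H07) and 295 (H08) CPM. NT liver held 107 (F09), 121 (F10), 164 (H17) and 175 (H18) CPM. All 4 treated rats were below all 4 no DEN rats, with the F rats lowest (log2 fold change -0.90, SE 0.18, adjusted p = 0.00368). Taldo1, the transaldolase gene, stood at 177 (F09), 194 (F10), 160.4 (H17) and 169.6 (H18) CPM in NT liver. Every value lay above the 132 to 147 CPM of the no DEN rats, by a log2 fold change of 0.33 (SE 0.08, adjusted p = 0.00686) that was under the size asked for a call. Pgd stood at 181 (F09), 176 (F10), 196 (H17) and 201 (H18) CPM against 207 (H05), 224 (H06), 224 (H07) and 213 (H08) CPM in no DEN liver. All 4 treated rats were lower, by a small amount that missed the threshold (log2 fold change -0.21, SE 0.08, adjusted p = 0.0545). Tkt (0.15), Pgls (-0.14) and Rpia (-0.18) had log2 fold changes that were not called, and their groups overlapped. Of the 10812 genes tested, 21.7% were called, against 1 of the 6 members.

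After 14 weeks of DEN, 5 of the 6 members were called in NT liver, where 32.6% of 11016 genes were called. Pgd, Taldo1 and Tkt were higher and Me1 and Pgls lower, so that within the oxidative branch the lactonase gene fell while the dehydrogenase gene after it rose. Taldo1 stood at 166 (F06), 274 (H21), 303 (H22) and 225 (H23) CPM in NT liver. The no DEN rats held 142 (H09), 144 (H10), 137 (H11) and 129 (H12) CPM and did not overlap with them, and the fold was 1.76 (log2 fold change 0.82, SE 0.16, adjusted p = 0.00182). Tkt stood at 338 (F06), 498 (H21), 503 (H22) and 436 (H23) CPM against 325 (H09), 329 (H10), 308 (H11) and 282 (H12) CPM, again with no overlap (log2 fold change 0.52, SE 0.12, adjusted p = 0.00399). Pgd stood at 193 (F06), 382 (H21), 407 (H22) and 319.9 (H23) CPM against 207 (H09), 262 (H10), 200.2 (H11) and 210.0 (H12) CPM. The 3 H rats were above every no DEN rat, whereas F06 was below all 4 of them, and the call was close to the threshold (log2 fold change 0.58, SE 0.21, adjusted p = 0.0443). F06 was also the lowest of the 4 treated rats for Taldo1, Tkt and Me1. Its NT library had 24.4% of read pairs assigned to no annotated gene, within the 21.5 to 26.3% of the libraries of other rats, whereas its nodule libraries had 34.5% and 28.2%, and the part of this in the results was not tested.

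Me1 stayed low at 14 weeks, at 119.6 (F06), 147 (H21), 164 (H22) and 176 (H23) CPM in NT liver. The no DEN rats held 287 (H09), 344 (H10), 271 (H11) and 235 (H12) CPM, all of them above the treated rats (log2 fold change -0.90, SE 0.14, adjusted p = 0.000424). Pgls stood at 37.9 (F06), 33.7 (H21), 39.9 (H22) and 43.5 (H23) CPM in NT liver and 51.9 (H09), 69.6 (H10), 56.2 (H11) and 50.7 (H12) CPM in no DEN liver, with no overlap (log2 fold change -0.55, SE 0.11, adjusted p = 0.00189). Rpia, the isomerase gene, held 10.4 (F06), 9.8 (H21), 9.34 (H22) and 8.12 (H23) CPM against 9.88 (H09), 11.8 (H10), 8.4 (H11) and 10.5 (H12) CPM, and the groups overlapped (log2 fold change -0.09, 95% interval -0.35 to 0.16). The calls of Taldo1 and Me1 were made in 13 of 14 alternative settings each, all but the stricter rule of the study for NT liver (a log2 fold change of 1 or more either way and an adjusted p at or under 0.01), under which no member was called. Pgd was called in 5 of 14, and its call was lost without H09 (log2 fold change 0.54), H11 (0.53), H12 (0.55), H21 (0.49), H22 (0.45) or H23 (0.58), and was kept without F06 (0.75). Tkt was called in 8 of 14 and lost without H12 (0.47), H21 (0.46) or H22 (0.45), and Pgls in 11 of 14 and lost without H10 (-0.45) or H21 (-0.49). In these tallies leaving out the F rats and leaving out F06 are the same fit, and both are counted.

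Whether the effect of DEN differed between weeks was tested as an interaction. The effect on Pgd was higher at 14 than at 8 weeks by 0.79 (log2, SE 0.23, adjusted p = 0.0432), and 8.96% of 11219 genes were called in this test. This call was made in 6 of 21 alternative settings. Without F09 (0.76), F10 (0.75), H05 (0.81), H06 (0.77), H07 (0.77), H08 (0.80), H09 (0.76), H11 (0.74), H12 (0.76), H18 (0.82), H21 (0.67), H22 (0.64) or H23 (0.76) it was lost. Taldo1 (0.49, adjusted p = 0.0984) and Tkt (0.37, adjusted p = 0.128) were not called, but both were called without F06, at 0.63 and 0.48. Me1, which was at a like level after 8 and 14 weeks, had a difference of 0.01 (95% interval -0.51 to 0.52). Rpia had 0.09. Pgls had -0.41 (adjusted p = 0.179), which was called without H17 (-0.53).

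At 20 weeks, 6 weeks after the last injection, Me1 was the only member called in NT liver, and the means of Pgd and Tkt were near those of the no DEN rats. Me1 held 99.4 (F03), 93.0 (H25), 132 (H26) and 171 (H28) CPM in NT liver. The no DEN rats held 172 (H13), 279 (H14), 303 (H15) and 294 (H16) CPM, of which H13 was closest to the treated rats without reaching them (log2 fold change -1.08, SE 0.24, adjusted p = 0.0129). Pgd stood at 184 (F03), 127 (H25), 243 (H26) and 304 (H28) CPM in NT liver. These rats spread on both sides of the no DEN values of 182 (H13), 273 (H14), 194 (H15) and 212 (H16) CPM (log2 fold change -0.01, 95% interval -0.60 to 0.58). Tkt held 366 (F03), 240.3 (H25), 348 (H26) and 387 (H28) CPM against 334 (H13), 321 (H14), 286 (H15) and 312 (H16) CPM, with H25 below every no DEN rat and the other 3 above (log2 fold change 0.10, 95% interval -0.21 to 0.40).

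Taldo1 at 20 weeks stood at 189 (F03), 144 (H25), 193 (H26) and 218 (H28) CPM in NT liver, all above the no DEN range of 125 to 140.0 CPM. Its log2 fold change of 0.46 (SE 0.12, adjusted p = 0.0161) was just under the size asked for, and it was called without H25 (0.57). Pgls, at 48.4 (F03), 44.8 (H25), 38.2 (H26) and 47.3 (H28) CPM, was below all no DEN rats by a log2 fold change of -0.29 (SE 0.09, adjusted p = 0.0341), also under that size. Rpia had -0.01. In this comparison 18.1% of 10827 genes were called. The difference of the DEN effect between 20 and 14 weeks was not called for any of the 6 members by edgeR (4 at an adjusted p from 0.268 to 0.434, Me1 0.796 and Rpia 0.862). It was -0.58 for Pgd (95% interval -1.35 to 0.19), -0.42 for Tkt (adjusted p = 0.268, and 0.0394 before adjustment) and -0.35 for Taldo1. In that test 0.738% of 11245 genes were called.

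Compared with no DEN liver, the nodules had higher Pgd, Taldo1 and Tkt and lower Me1 at both weeks, 4 of 6 members called each time. At 14 weeks 39.1% of 11316 genes were called, and at 20 weeks 38.8% of 11199. Taldo1 rose the most of the 6. It stood at 256 (F06), 306 (H21), 453 (H22) and 408 (H23) CPM in the nodules of the 14-week rats, 2.51-fold the no DEN level (log2 fold change 1.33, SE 0.16, adjusted p = 0.000212). At 20 weeks it stood at 341 (F03), 248 (H25), 442 (H26) and 541 (H28) CPM, 2.82-fold (log2 fold change 1.49, SE 0.20, adjusted p = 0.000333). No rat overlapped with the no DEN rats at either week. Tkt held 386 (F06), 521 (H21), 675 (H22) and 668 (H23) CPM at 14 weeks and 514 (F03), 384 (H25), 667 (H26) and 676 (H28) CPM at 20 weeks. Both sets lay above all no DEN rats of the same week (log2 fold change 0.82, SE 0.16, adjusted p = 0.00295, and 0.79, SE 0.17, adjusted p = 0.00347).

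Pgd held 209 (F06), 421 (H21), 571 (H22) and 534 (H23) CPM in the nodules at 14 weeks and 322 (F03), 256 (H25), 502 (H26) and 678 (H28) CPM at 20 weeks. The nodules of F06, at 209 CPM, lay within the no DEN range of their week, as did those of H25 at 20 weeks (256 CPM, against up to 273 CPM), and the other 3 rats of each week were above it (log2 fold change 0.94, SE 0.26, adjusted p = 0.0157, and 0.98, SE 0.27, adjusted p = 0.0126). Me1 held 109 (F06), 161 (H21), 192 (H22) and 200.4 (H23) CPM at 14 weeks and 107 (F03), 114 (H25), 169 (H26) and 156 (H28) CPM at 20 weeks. All were below the no DEN rats of their week (log2 fold change -0.82, SE 0.19, adjusted p = 0.00606, and -0.99, SE 0.21, adjusted p = 0.00287). Each of these 8 calls was made in all 15 alternative settings tried for it. Leaving out the F rats and leaving out F06 or F03 are the same fit there, and both are counted. Without F06 the 14-week values were 1.20 for Pgd, 1.47 for Taldo1, 0.98 for Tkt and -0.64 for Me1. Pgls (-0.27 and -0.18) and Rpia (0.06 and 0.01) were not called at 14 or 20 weeks. The effect in nodules did not differ by a detectable amount between 20 and 14 weeks for any member. The adjusted p of edgeR was 1 for all 6, no member had an unadjusted p under 0.05, and 0.0862% of 11607 genes were called. For Taldo1 the difference was 0.16 (95% interval -0.41 to 0.73) and for Pgd 0.03 (95% interval -0.83 to 0.88).

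**Figure D2:**
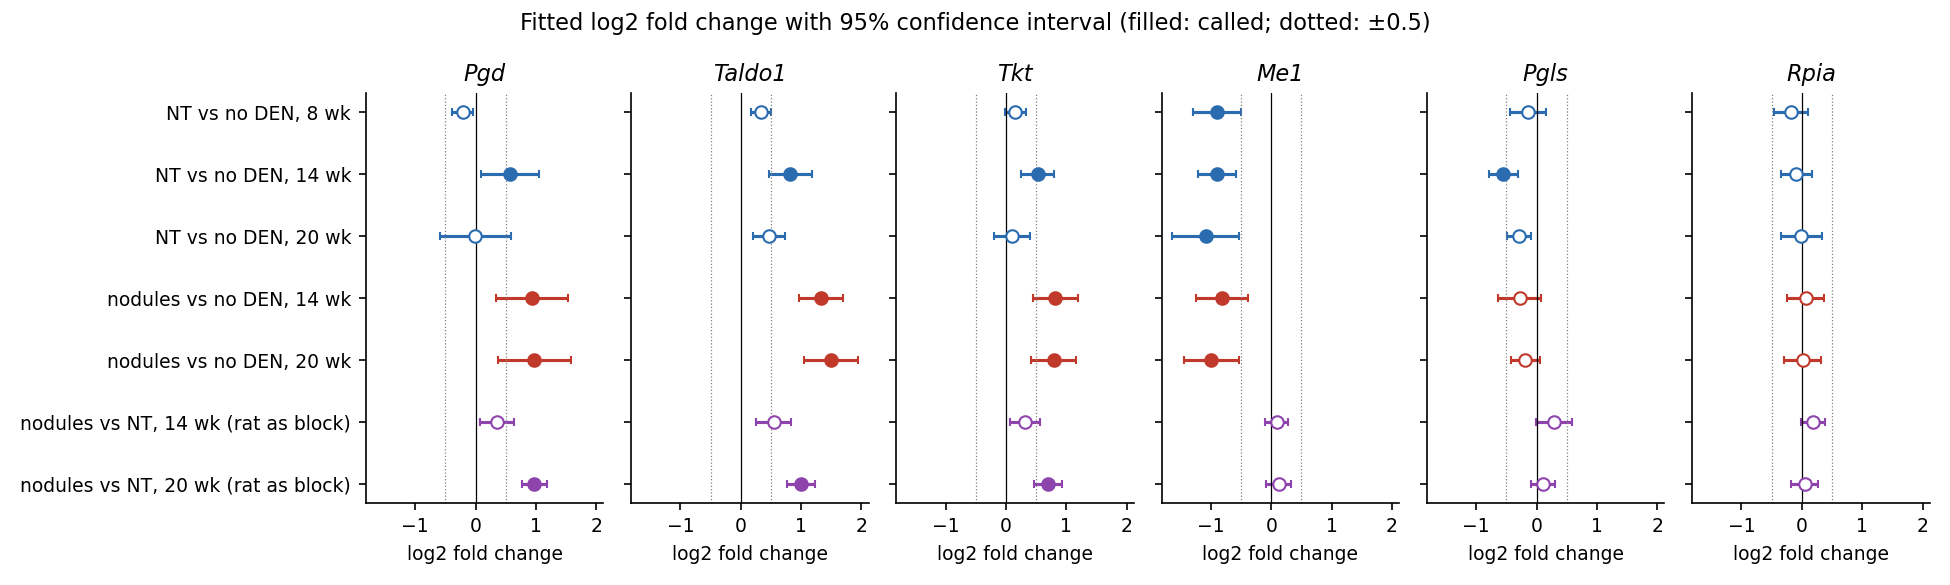
Fitted log2 fold change (horizontal axis) with its 95% confidence interval for each member in NT liver against no DEN liver (blue), nodules against no DEN liver (red) and nodules against NT liver of the same rats (purple); filled points were called and dotted lines mark ±0.5. Taldo1 went from 0.33 at 8 weeks to 1.49 in the nodules at 20 weeks, and Me1 stood between -0.82 and -1.08 in the 5 comparisons with no DEN liver but near 0 between nodules and NT liver.

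The same rats gave NT liver and nodules, which allowed each nodule to be set against the liver around it. At 20 weeks all 8 nodules were above the NT liver of their own rat for Pgd, Taldo1 and Tkt. They are 2 nodules from each of 4 rats, and both nodules of a rat share its NT library. The share of all genes with every nodule above its NT liver was not counted. With the rat as a block these 3 members were called, where 14.7% of 11546 genes were called. Pgd was 1.96-fold higher, with NT liver of 184 (F03), 127 (H25), 243 (H26) and 304 (H28) CPM and nodules of 322 (F03), 256 (H25), 502 (H26) and 678 (H28) CPM (log2 fold change 0.97, SE 0.10, adjusted p = 1.95e-05). Taldo1 had a log2 fold change of 1.00 (SE 0.11, adjusted p = 3.62e-05) and the summed nodules of each rat lay above every NT liver, although nodule 2 of H25 alone (184 CPM) was below the NT liver of F03, H26 and H28. Tkt had 0.70 (SE 0.11, adjusted p = 0.00049). Markers of bile duct, cycling cells and nodules were called higher in the same comparison, and their values are given with the other markers. Variants of the blocked fit were added after these values were seen. All 3 members stayed called under RLE scaling, without the filter, with nodule 1 or nodule 2 alone and without each rat in turn. Their log2 fold changes were 0.86 to 1.05 for Pgd, 0.89 to 1.08 for Taldo1 and 0.64 to 0.78 for Tkt. The planned main test was edgeR fitted to these groups without the block, and the block was its alternative. That planned fit called none of 11546 genes (0%, with 2767 at an unadjusted p under 0.05). Also without the block, DESeq2 called all 3 members and 902 genes and edgeR fitted to all 8 groups called all 3 and 1096 genes. In the planned fit Pgd was at an adjusted p of 0.134, Taldo1 at 0.0949 and Tkt at 0.113. Without H25 this fit called Taldo1 (1.10) and Tkt (0.72).

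At 14 weeks, when DEN was still being given, no member was called between nodules and NT liver, with the block or without it. In both fits 0% of 11466 genes were called (2518 at an unadjusted p under 0.05 with the block and 1348 without it, while DESeq2 without the block called 35 genes). Without F06 the blocked fit called 300 genes and still no member. With the block the log2 fold change was 0.54 for Taldo1 (SE 0.12, adjusted p = 0.167), 0.36 for Pgd (SE 0.12, adjusted p = 0.191) and 0.31 for Tkt (SE 0.10, adjusted p = 0.191). With nodule 1 alone these were 0.78, 0.62 and 0.51, and with nodule 2 alone 0.28, 0.063 and 0.10. All 8 nodules were above their NT liver for Taldo1, 7 each for Tkt and Rpia, 6 each for Pgd and Pgls, and 5 for Me1. The difference between weeks was tested in 1 fit with the rat as a block, a test added after these values were seen. It was 0.62 for Pgd (SE 0.15, adjusted p = 0.117, and 0.00184 before adjustment), 0.47 for Taldo1 (SE 0.17, adjusted p = 0.284) and 0.39 for Tkt (SE 0.15, adjusted p = 0.292), so no member was called, against 0.45% of 11781 genes. With nodule 2 alone Pgd was called (0.97), among 1658 genes called in that fit, and with nodule 1 alone it had 0.27.

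Me1, Pgls and Rpia were not called in these comparisons. The log2 fold change of Me1 between nodules and NT liver was 0.09 at 14 weeks (95% interval -0.10 to 0.28) and 0.12 at 20 weeks (95% interval -0.08 to 0.33) with the rat as a block. Pgls had 0.29 and 0.11, and Rpia 0.18 and 0.04. The nodules of a rat also differed from each other. In H28 at 20 weeks Taldo1 stood at 296 CPM in nodule 1 and 726 CPM in nodule 2, a 2.46-fold difference, and Pgd at 533 and 789 CPM. In H23 at 14 weeks nodule 1 held 673 CPM of Pgd, 522 CPM of Taldo1 and 823 CPM of Tkt, and nodule 2 held 376, 278 and 491 CPM. Over the 8 nodules of 20 weeks, Pgd ranged from 185 to 789 CPM (median 369), Taldo1 from 184 to 726 CPM (median 356), and Me1 only from 103 to 170.5 CPM (median 136).

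**Figure D3:**
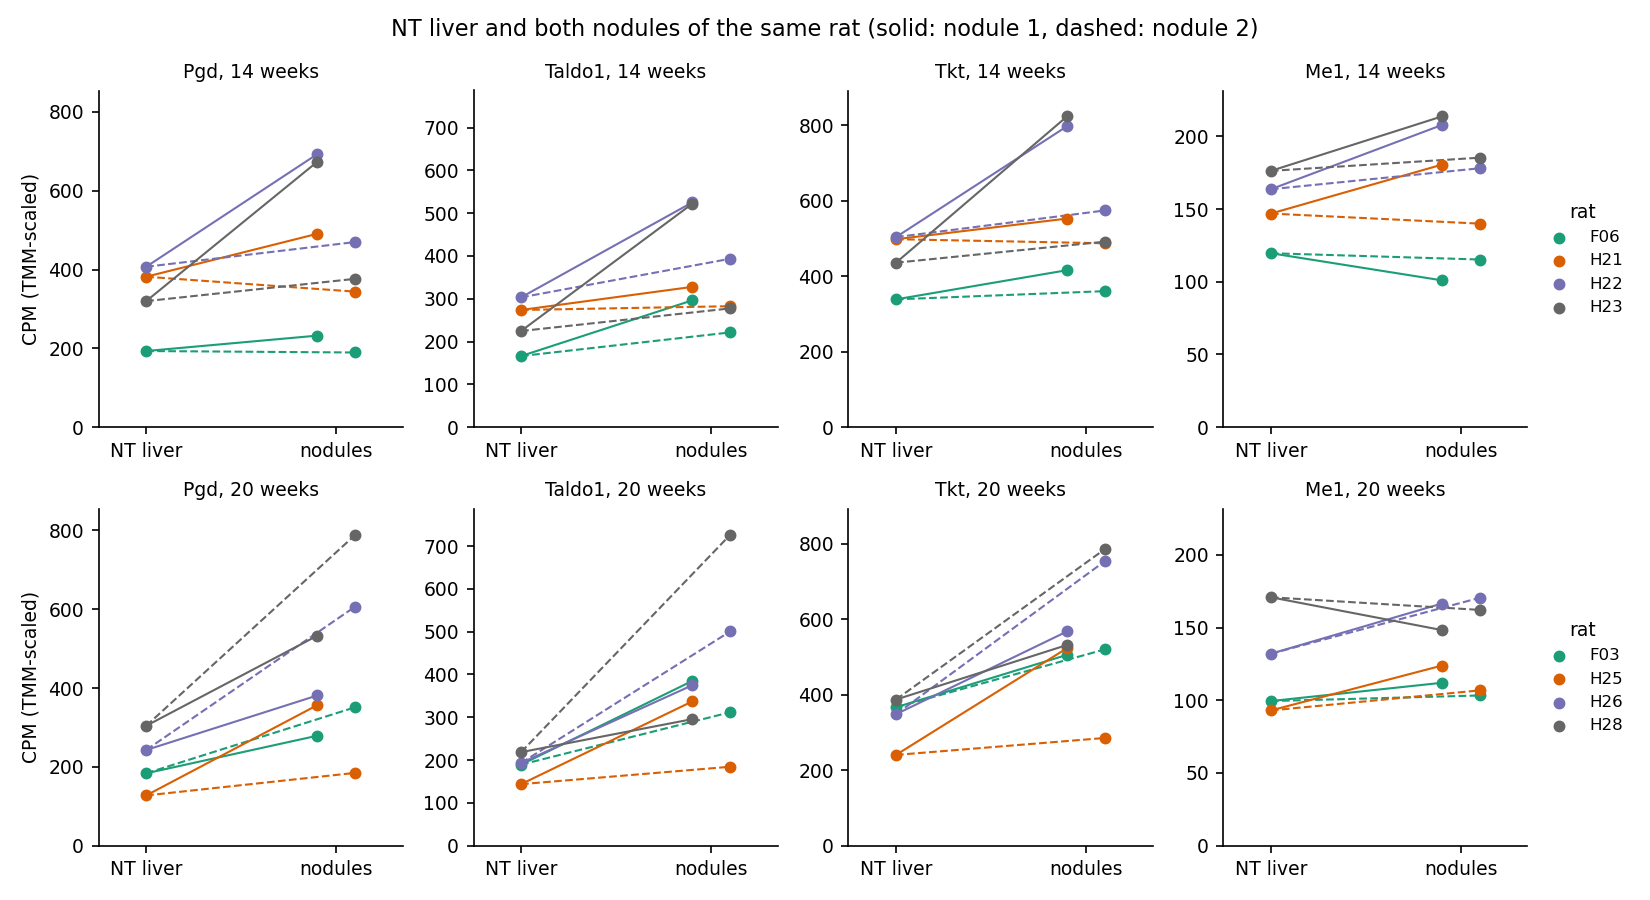
CPM (TMM-scaled, linear axis from 0) of Pgd, Taldo1, Tkt and Me1 in NT liver and in both nodules of the same rat at 14 weeks (upper row) and 20 weeks (lower row), with a color for each rat, solid lines to nodule 1 and dashed lines to nodule 2. All lines of Pgd, Taldo1 and Tkt go up at 20 weeks, 8 of 8 nodules for each gene, while for Me1 6 of 8 nodules lie above their NT liver, both H28 nodules below it.

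Ordered by mean, Taldo1 went from no DEN liver (135 ± 6.95, 138 ± 6.52 and 139 ± 6.15 CPM at 20, 14 and 8 weeks, SD, n = 4) through NT liver at 8 weeks (175 ± 14.2), 20 weeks (186 ± 31.1) and 14 weeks (242 ± 60.1) to nodules at 14 weeks (356 ± 90.5) and 20 weeks (393 ± 126). Neighbours in this order overlapped, except no DEN liver and NT liver at 8 weeks. Tkt had the same 3 tissues in sequence at 14 weeks, with group means of 311 CPM in no DEN liver, 444 ± 76.6 CPM in NT liver and 562 ± 137 CPM in nodules, of which the last 2 overlapped. Pgd means ran from 189 ± 11.9 CPM in NT liver at 8 weeks, through NT liver at 20 weeks (214 ± 76.1) and no DEN liver (215 to 219.8 CPM) to NT liver at 14 weeks (325 ± 95.5) and nodules (434 ± 163 and 439.5 ± 190.1 at 14 and 20 weeks), and each overlapped with its neighbours. Pgls ran from 63.1 ± 5.22 CPM in no DEN liver at 8 weeks to 38.7 ± 4.09 CPM in NT liver at 14 weeks, again with neighbours overlapping, and group means of Rpia stayed between 9.42 and 11.5 CPM with all groups overlapping. Me1 was highest in no DEN liver, with 262 to 284 CPM as group means in no DEN liver and 124 to 166 CPM in the 5 DEN-treated groups, which overlapped with each other.

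Over the 32 values of rat and tissue, log2 CPM of Taldo1 and Tkt had a Pearson r of 0.95, of Pgd and Tkt 0.90, and of Pgd and Taldo1 0.86. Pgd and Me1 had 0.06, and Rpia had at most 0.31 with any other member. These r are descriptions, since the points share rats, treatment groups and library composition. Among 10100 genes with a mean of at least 1 CPM, those most like Taldo1 were Cdkn2aipnl (0.97), Krt8, a keratin of simple epithelia (0.97), and Slc48a1, a heme transporter (0.97). For Tkt they were Taldo1, Cdkn2aipnl (0.92) and Cfl1, encoding cofilin (0.91). Ppp2ca, a phosphatase subunit (0.93), and Riok3 (0.93) were among the 3 genes most like Pgd. Tprg1l (0.92), Osbpl11 (0.87) and Psmd2, a proteasome subunit (0.86), were most like Me1. For Pgls they were genes of mitochondrial respiration, Atp5d (0.94), Ndufs7 (0.93) and Atp5g1 (0.93), whereas no gene came close to Rpia (Fxr2 0.73, Rnf40 0.71, Alg2 0.70).

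Other genes of sugar phosphate metabolism were called in both directions. Over all genes, 23.9% were called higher and 15.2% lower in nodules at 14 weeks and 23.6% and 15.2% at 20 weeks, and in NT liver 16.5% and 5.21% at 8 weeks, 22.8% and 9.85% at 14 weeks and 14.3% and 3.82% at 20 weeks. Of 13 listed, 10 could be tested, and in nodules 2 were higher and 3 lower at 14 weeks and 3 higher and 3 lower at 20 weeks (median log2 fold change -0.22 and -0.19, against 0.00 and 0.01 over all genes). In NT liver 1 was higher and 1 lower at 8 weeks, 3 higher and 1 lower at 14 weeks and 2 higher at 20 weeks. Pgm2, a mutase that feeds pentose phosphates from nucleosides into the pathway, was higher throughout, from 0.97 in NT liver at 20 weeks to 1.36 in the nodules at 14 weeks (SE 0.17, adjusted p = 0.000239). Tigar, whose phosphatase directs sugar phosphates towards the pathway, rose in the nodules at 14 weeks (0.85, SE 0.15, adjusted p = 0.00174). H6pd, which runs the oxidative branch in the endoplasmic reticulum, and Shpk, the sedoheptulose kinase, were lower there (-0.74, SE 0.08, adjusted p = 0.000105, and -0.76, SE 0.11, adjusted p = 0.000411). With the block none of the 10 was called between nodules and NT liver at 20 weeks, against 14.7% of all genes.

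Of 11 genes listed as other NADPH sources, 4 were higher and 6 lower in the nodules at 14 weeks. At 20 weeks 3 were higher and 6 lower (median -0.57 at both weeks). Over all genes, 23.9% and 23.6% were called higher and 15.2% lower at each week. In NT liver 3, 4 and 2 of the 11 were higher and 3, 2 and 1 lower at 8, 14 and 20 weeks. Only mRNA was measured, so the cofactor that each enzyme used is not shown. The direction of NADPH supply cannot be read from these counts. The 3 malic enzymes split. Me2, a mitochondrial form, was higher in the nodules at 14 weeks (1.86, SE 0.20, adjusted p = 9.01e-05), where Me1 and Me3, the other mitochondrial form, were lower (Me3 -2.31, SE 0.23, adjusted p = 6.73e-05). In the mitochondrial folate cycle Mthfd2 rose by 2.55 (SE 0.16, adjusted p = 8.19e-06) and Aldh1l2 fell by 1.14 on the log2 scale (adjusted p = 2.69e-05). At 20 weeks with the block Mthfd2 (1.29) and Me2 (0.77) were higher in nodules than in NT liver, and Me3 (-0.96) and Nadk2 (-0.53), a mitochondrial NAD kinase named after its value was seen, were lower.

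Genes whose products spend NADPH on antioxidant defence and detoxification, and targets of the transcription factor NRF2, held called genes at all 3 weeks. Of 9 NADPH users, 3, 6 and 5 were higher in NT liver at 8, 14 and 20 weeks and none lower, and in nodules 7 were higher and 1 lower at 14 weeks and 5 higher at 20 weeks (median 1.39 and 1.33). The share of all genes called higher was 16.5%, 22.8% and 14.3% in NT liver and 23.9% and 23.6% in nodules. In the nodules at 14 weeks Nqo1, a quinone reductase, had a log2 fold change of 4.73 (SE 0.55, adjusted p = 0.000156), Akr7a3, an aldehyde reductase, 4.49 (SE 0.35), Cbr3, a carbonyl reductase, 2.87 (SE 0.31), and Txnrd1, thioredoxin reductase, 2.11 (SE 0.30). Of 10 genes of the NRF2 list, 2 were higher and 1 lower in NT liver at 8 weeks, 5 and 7 higher at 14 and 20 weeks, and 6 and 7 higher in nodules at 14 and 20 weeks (median 1.26 and 1.44), with Srxn1 (3.77, SE 0.31), Gclc (2.68, SE 0.36) and Gclm (2.50, SE 0.38) at 14 weeks. Slc7a11, the cystine transporter, had 1 to 6 counts in the no DEN rats and 1700 to 9626 in the nodules at 14 weeks. At 20 weeks it had at most 2 counts in a no DEN library and was at least 802-fold higher in nodules, taking 3 counts in each no DEN library as the floor. Nfe2l2 itself, encoding NRF2 and named after its values were seen, was not called in any of these comparisons (0.13 in the nodules at 14 weeks and -0.45 at 20 weeks). With the block at 20 weeks 5 of the 9 NADPH users and 5 of the 10 NRF2 list genes were higher in nodules than in NT liver, against 9.21% of all genes.

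Genes of fatty acid synthesis, which draws on the NADPH of malic enzyme, were called in the direction of Me1. Of 9 genes tested, 4, 8 and 5 were lower in NT liver at 8, 14 and 20 weeks and 8 were lower in nodules at both weeks, none being higher (median in nodules -1.28 and -1.39). Of all genes, 5.21%, 9.85% and 3.82% were called lower in NT liver and 15.2% in nodules at each week. In the nodules at 14 weeks Acly, ATP citrate lyase, had -1.72 (SE 0.22, adjusted p = 0.000255), Fasn, fatty acid synthase, -1.56 (SE 0.27, adjusted p = 0.0013), and the acetyl-CoA carboxylases Acaca -1.42 (SE 0.27) and Acacb -1.28 (SE 0.14). With the block 1 of the 9 (Mlxipl, encoding ChREBP, -0.60, named after its value was seen) was called lower in nodules than in NT liver at 20 weeks, against 5.46% of all genes.

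**Figure D4:**
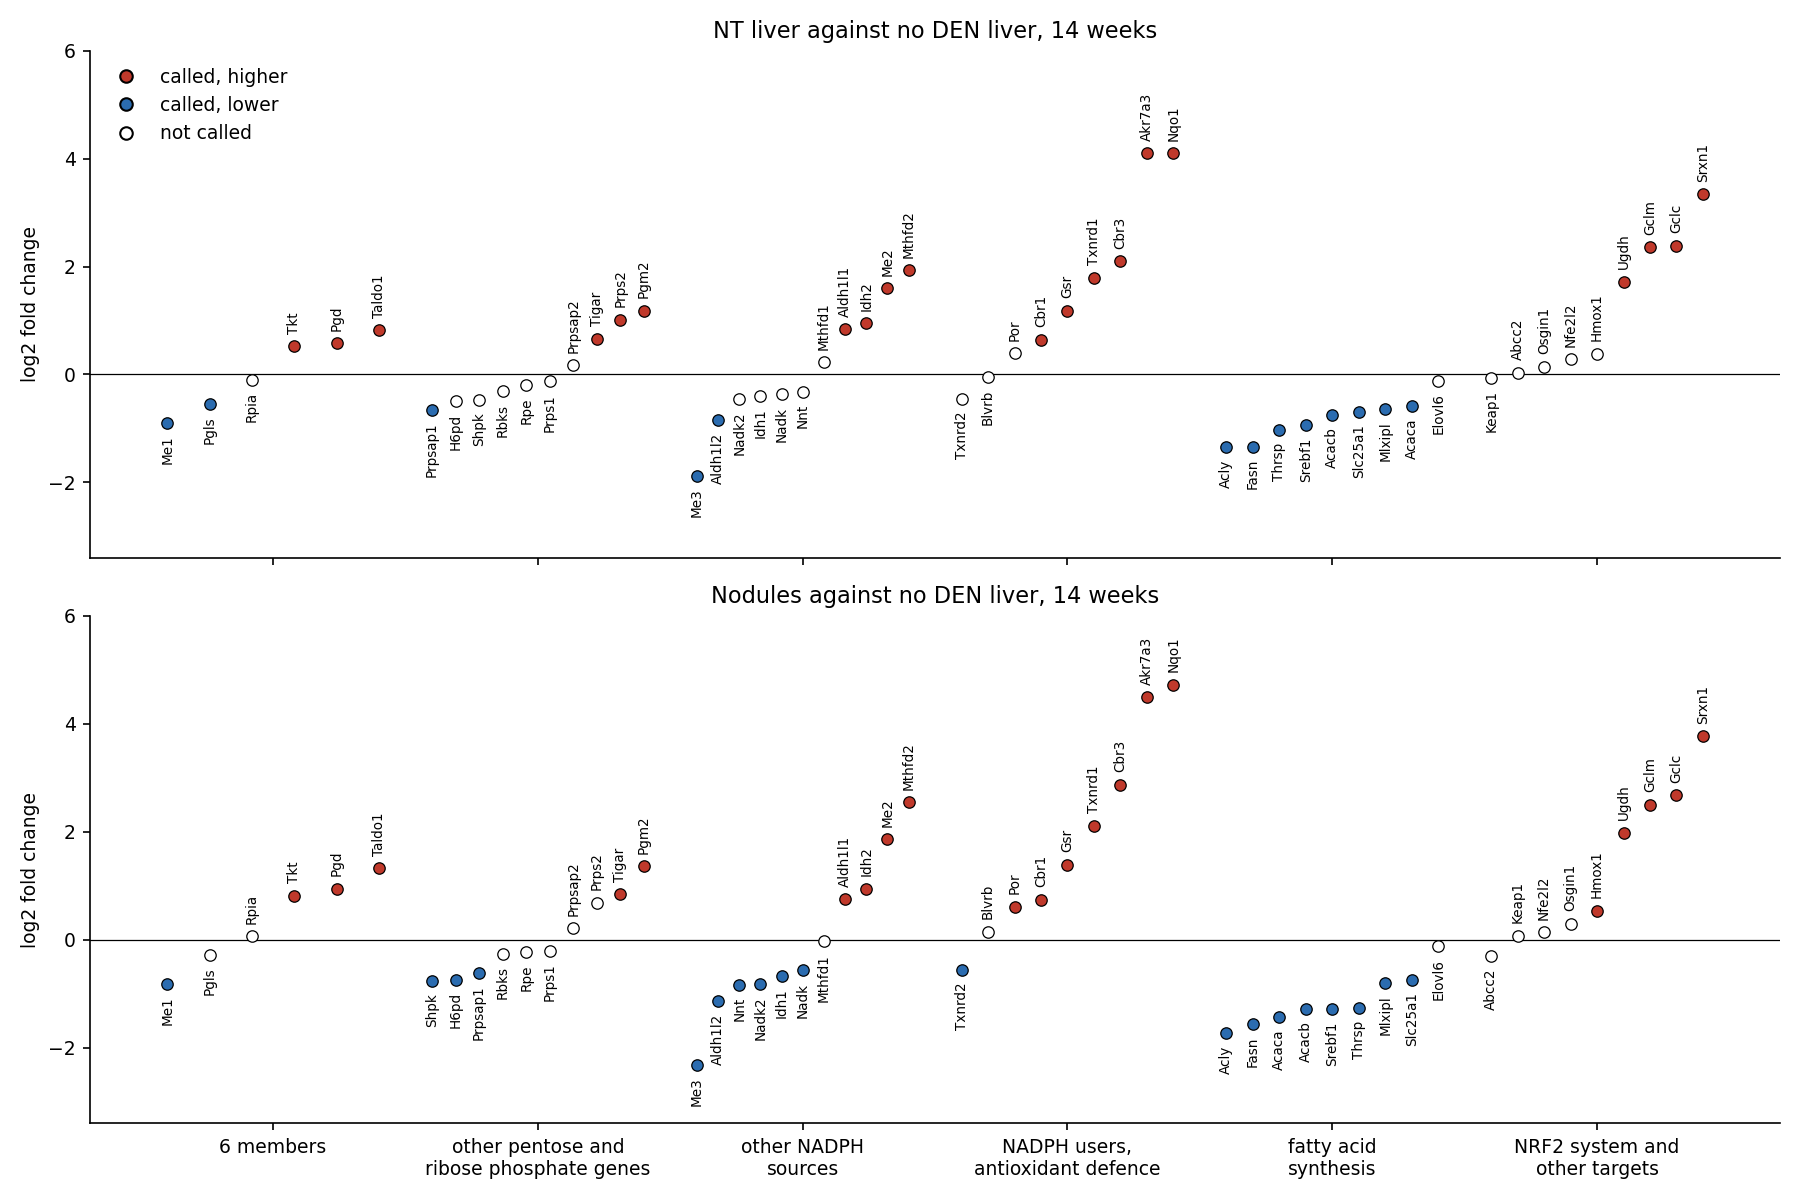
Log2 fold change of the 6 members and of the tested genes of 5 lists in NT liver (upper panel) and nodules (lower panel) against no DEN liver at 14 weeks, ordered by value within each list; red points were called higher, blue points called lower and white points not called. NADPH users and NRF2 list genes reached 4.73 (Nqo1), fatty acid synthesis genes went down to -1.72 (Acly), and Slc7a11 is left out because it had few counts in no DEN liver.

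Markers of other cells moved along with these groups, and their part in the results was not tested. Bile duct markers (3 of 4 in the tables) summed to 15.9 to 23.3 CPM in no DEN liver, 36.2 to 86.9 CPM in NT liver and 58.6 to 116 CPM in nodules at 14 weeks. Markers of cycling cells (5 of 5) summed to 14.6 to 19.8, 65.9 to 165 and 76.8 to 182 CPM, and stellate cell and fibroblast markers (6 in the tables, 1 at 0 throughout) to 148 to 191, 329 to 441 and 381 to 458 CPM. Endothelial markers (5 of 5) summed to 84.3 to 133 CPM in no DEN liver, 175 to 219 in NT liver and 172 to 211 in nodules. Lymphocyte markers (5 of 5) summed to 10.1 to 14.2, 17.9 to 35.1 and 16.8 to 33.6 CPM, and macrophage markers (5 of 5) to 258 to 391, 258 to 663 and 271 to 566 CPM. Neutrophil and red cell markers (4 in the tables) summed to 249.7 to 320.2 CPM in no DEN liver, 92.4 to 308 in NT liver and 99.8 to 708 in nodules. The nodule markers (Gstp1, Ggt1, Gpc3 and Akr1b10) summed to 8.40 to 11.5 CPM in no DEN liver and already to 514 to 2027 CPM in NT liver at 14 weeks, against 1701 to 3353 CPM in nodules. At 8 weeks NT liver held 78.1 to 322 CPM of them. Called higher there were 5 of 5 cycling, 5 of 5 stellate and fibroblast, 4 of 4 lymphocyte and 4 of 5 endothelial markers tested. So were 3 of 3 nodule, 2 of 3 bile duct, 2 of 3 neutrophil and red cell and 1 of 5 macrophage markers. Of 6 hepatocyte markers 2 were called lower. Over all genes, 16.5% were called higher and 5.21% lower.

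At 20 weeks Pgd, Taldo1 and Tkt were called between nodules and NT liver with the block. In that fit all 3 bile duct markers, all 5 markers of cycling cells and all 4 nodule markers were called higher in nodules (median log2 fold change 1.41, 1.12 and 1.46). Of 6 hepatocyte markers 3 were called lower (median -0.55). Over all genes, 9.21% were called higher and 5.46% lower in that fit. Bile duct markers summed to 33.2 to 52.9 CPM in NT liver and 69.2 to 188 CPM in nodules, cycling markers to 20.2 to 66.3 and 43.7 to 139 CPM, and nodule markers to 572 to 1381 and 1277 to 3774 CPM. Of the other lists, 1 of 5 stellate and fibroblast markers tested was called higher and 1 of 5 macrophage markers lower, and none of the endothelial, lymphocyte or neutrophil and red cell markers was called. Their part in the results on the 3 members was not tested.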

How the data were processed

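Livers and nodules were profiled by poly(A) RNA-seq (TruSeq Stranded mRNA, paired reads of 75 bases). The authors aligned reads to rn6 with STAR 2.7.1a, counted uniquely mapped read pairs in exons on the matching strand with HTSeq, tested with DESeq2 1.22.2, and deposited raw counts per gene, which are used here as deposited. The 5 summary lines of HTSeq (32.8 to 45.4% of each library) were left out of library sizes and tests. No columns of fold changes or p-values were used.

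Libraries were grouped by their labels, and counts of both nodules of a rat were summed. Differences were tested with edgeR 4.0.16 in R 4.3.3 (filterByExpr, TMM, robust quasi-likelihood, only the groups compared) with Benjamini-Hochberg adjustment over all genes tested. Interactions were called at any size. CPM used TMM factors of all libraries, and log2 CPM for correlations a prior count of 2. Alternatives were DESeq2 1.42.0, RLE scaling, no filter, all 8 groups in 1 fit, no F rats, single nodules, a stricter rule, the rat as a block and leaving out each rat. Variants of the blocked fit and the blocked difference between weeks were added after the values were seen. The steps were tested on simulated data. Rats of a group differed beyond counting error, so none was taken as a copy of another rat of its group. Chi-square divided by its degrees of freedom was 12.9 or more in each pair, with the nodules of a rat summed. Single nodule libraries and libraries of different groups were not compared in this way. Nodules and NT liver came from the same animals, and their deviations from the group means correlated within every rat (r of 0.39 to 0.65), so the blocked values are given where they change a call. The no DEN rats of a week serve both the NT liver and the nodule comparison.

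The members and lists were chosen with earlier results of these data known. All members were named, and of each list up to 4 genes called in at least 1 comparison, by their change in nodules at 14 weeks, as well as the 3 genes most like each member in pattern. Genes outside this rule are marked where they are printed. For Pgd 1 gene that this rule gives is not reported here. Promoters were read from RefSeq (GRCr8), with none used for Pgls.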

Additional observations from a re-analysis of the deposited data

Results flagged for a closer look

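Of 60 groups checked for a single value far from the others, 2 were flagged, and chance flags about 1 in 20 groups. Pgd in no DEN liver at 14 weeks was highest in H10 at 262 CPM, with the next rat at 210.0 and the lowest at 200.2 CPM, so that the gap took 0.844 of the range. Among the 8 single nodules of 20 weeks, Pgls was highest at 80.2 CPM, with the next at 54.9 and the lowest at 40.3 CPM (gap 0.634 of the range).

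The effect of DEN in NT liver differed between weeks by an interaction test of edgeR in 9 cases. These were among the 6 members and the list genes named by the rule (up to 4 from each of 5 lists). Over all genes, 8.96% were called at 14 against 8 weeks and 0.738% at 20 against 14 weeks. The list genes were picked by their change in nodules against the same 14-week no DEN rats. Their count therefore cannot be set against these shares. Gsr (0.98) and Ugdh (1.70), list genes outside that rule and named after their values were seen, were also called at 14 against 8 weeks. Between 14 and 8 weeks the difference was 0.79 for Pgd (adjusted p = 0.0432), 0.92 for Me2 (0.0157), 2.39 for Nqo1 (0.0462), 2.10 for Akr7a3 (0.0294), 1.52 for Txnrd1 (0.0145), 2.02 for Srxn1 (0.0139), 1.94 for Gclc (0.0234) and 2.0 for Gclm (0.0117), each higher at 14 weeks on the log2 scale. Between 20 and 14 weeks it was 1.11 for Me3 (adjusted p = 0.0278), whose level was reduced less at 20 weeks.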

How the results depend on the processing

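Of 1140 values of the members under alternative settings, 1021 kept their direction and side of the threshold, 37 lost a call, 19 gained one and 63 changed sign. The cause of these changes was not tested. Where a comparison held 1 F rat, leaving out the F rats and leaving out that rat gave the same fit, and both are counted. The calls of Taldo1, Tkt, Pgd and Me1 in nodules against no DEN liver held in all alternatives tried for them. Under the stricter rule of the study no member (0) was called in NT liver at 8, 14 or 20 weeks, with 855, 1676 and 565 genes called. With all 8 groups in 1 fit, 3 members were called in NT liver at 14 weeks, and leaving out 1 rat gave 2 to 5 (2 without H21, 3 without H12 or H22) and at 20 weeks 1 to 2 (2 without H25).

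For nodules against NT liver at 20 weeks, 3 members and 1693 genes were called with the replicate block, 3 and 902 with DESeq2, 3 and 1096 with all 8 groups, 1 and 218 with nodule 1 alone, and 0 to 2 and 0 to 445 without 1 rat (2 and 445 without H25). At 14 weeks DESeq2 called 35 genes. With the block, 1009 genes were called at 20 weeks with nodule 1 alone and 1070 (without H26) to 2078 without 1 rat, and at 14 weeks 0 to 300 (300 without F06). The pairing changed no other call of a member.

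For the DEN effect at 14 against 8 weeks, 1529 genes were called with DESeq2, 151 with all 8 groups and 533 (without H21) to 1870 (without H17) without 1 rat, and 0 members without the filter or with all 8 groups, 3 without the F rats and 0 to 3 without 1 rat (3 without F06, 2 without H17). At 20 against 14 weeks 381 genes were called with DESeq2, 41 with all 8 groups, 182 without the F rats and 31 (without H22) to 408 (without H26) without 1 rat. In nodules 29, 16 and 5 genes were called with DESeq2, all 8 groups and nodule 1 alone, and 6 to 15 without 1 rat. The blocked difference between weeks called 0 genes with nodule 1 alone, 1658 genes and 1 member with nodule 2 alone, 137 genes without the F rats and 7 (without F03 or H21) to 187 (without F06) without 1 rat.

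Signs changed in results whose main values ran from -0.17 (Pgls, blocked difference between weeks) to 0.16 (Taldo1, nodules at 20 against 14 weeks). Some alternative values lay further from 0. In NT liver at 20 weeks Pgd was 0.066 and Rpia 0.031 without the F rats, and -0.24 to 0.18 and -0.15 to 0.082 without 1 rat. Me1 at 14 against 8 weeks was -0.0053 with DESeq2, -0.0062 with RLE scaling, -0.0018 without the filter, -0.030 with all 8 groups, -0.16 without the F rats and -0.11 to 0.12 without 1 rat. Rpia in nodules at 20 weeks was -0.044 with nodule 1 alone. Without 1 rat Rpia was -0.028 to 0.13 in nodules at 14 weeks and -0.098 to 0.10 at 20 weeks, -0.044 to 0.13 in nodules against NT liver at 20 weeks (-0.037 to 0.13 with the block), and -0.026 to 0.19 at 20 against 14 weeks in NT liver. In nodules at 20 against 14 weeks Pgd was -0.074 without the F rats and -0.40 with nodule 1 alone, Taldo1 -0.22 with nodule 1 alone, Rpia 0.061 without the F rats, and Tkt 0.27 and Pgls -0.089 with nodule 2 alone. Without 1 rat these were -0.25 to 0.21 for Pgd, -0.022 to 0.32 for Taldo1, -0.16 to 0.040 for Rpia, -0.16 to 0.10 for Tkt and -0.027 to 0.22 for Pgls. In the blocked difference Me1 was -0.019 without the F rats and -0.034 to 0.14 without 1 rat, and Pgls 0.046 with nodule 1 alone.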
